A study of Homo sapiens with 4 samples.

Results

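The genes described here are 47 genes of the centromere, the kinetochore and the spindle assembly checkpoint, chosen by symbol from a fixed list, of 56865 genes to which the reads of this series could be assigned. All 47 passed the filter on low counts and were among the 19358 genes tested. They were followed in MDA-MB-468, an established human breast cancer line that the labels class as triple negative, at passage 12. The treated cultures were given 5 µM MS1943, which by the series title degrades the histone methyltransferase EZH2, for 3 days (2 libraries), and the control cultures were given DMSO, the usual solvent for such compounds (2 libraries). The labels give no time for DMSO. The series asks which transcripts the compound changes, from poly(A) RNA of whole dishes, seeded in duplicate. No label says whether the duplicates were separate experiments, so the p-values reflect only how far these libraries spread, which may be technical.

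The centromere is the stretch of chromosome where nucleosomes carry the histone variant CENP-A. A constitutive network of CENP proteins sits on these nucleosomes throughout the cell cycle, and in mitosis it recruits the outer kinetochore, whose NDC80 complex grips spindle microtubules. Kinetochores without microtubules feed the spindle checkpoint, in which TTK, BUB1, BUBR1 and the MAD proteins hold back anaphase, while the chromosomal passenger complex releases wrong attachments. Many of these genes are transcribed mainly in G2 and mitosis, and a culture holds more of their RNA when more of its cells divide.

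The libraries held 47564377 to 71378893 estimated reads. Libraries of a group correlated across genes at r = 0.994 (DMSO) and r = 0.993 (MS1943), against 0.965 to 0.967 between groups, and in both pairs the libraries lay further apart than read sampling alone gives. Genes encoded by mitochondrial DNA made up 1.65% and 1.78% of the DMSO libraries and 3.52% and 3.11% of the MS1943 libraries. All 9 epithelial and basal markers checked were present (summed CPM 11977 to 17178), and the leukocyte gene PTPRC stayed at or under 0.15 CPM. Of the fibroblast, leukocyte and endothelial lists, 5 of 6, 4 of 6 and 4 of 5 genes stayed under 1 CPM in every library, and the exceptions were COL1A1, CD14, CD68 and KDR. The summed leukocyte list was 164.5 and 148 CPM with DMSO and 118 and 117 CPM with MS1943, nearly all of it CD14 and CD68, which went in opposite directions. CD14 went from 163 and 147 to 86.2 and 87.4 CPM, and CD68 from 1.08 and 0.83 to 32.002 and 29.7 CPM. The fibroblast list summed to 21.3 and 20.95 against 31.9 and 28.3 CPM and the endothelial list to 6.23 and 6.06 against 2.53 and 2.75 CPM. Their part in the results below was not tested.

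With MS1943, 41 of the 47 genes fell, 4 rose (CENPT, ZW10, PMF1 and MIS12) and 2 did not pass the test (CENPL and BUB3). Genes were tested with the quasi-likelihood F test of edgeR, p-values were adjusted by Benjamini-Hochberg over all tested genes, and a gene passed at an adjusted p under 0.05. Fold changes are MS1943 over DMSO, fitted on the log2 scale and given ± SE. Among all genes tested, 59.3% passed, 29.4% falling and 30.0% rising (33.0% and 34.1% of the protein-coding genes), so the share of these genes that fell, 87.2%, lay well above that background, and the share that rose lay below it. Of the 47, 17 fell at least 2-fold and 0 rose as much, against 7.93% and 7.97% of all genes tested and 6.9% and 7.34% of the protein-coding ones. The median log2 fold change was -0.80 for the 47 genes and -0.01 for all genes tested. The libraries of each treatment did not overlap in CPM (a gene's reads relative to the library's total, scaled by TMM and not by length) for 46 of the 47 genes, which is true of 78.3% of all genes tested and 83.1% of protein-coding genes, and the exception was CENPL. In length-scaled units (TPM), the 47 genes together summed to 2404 and 2417 TPM with DMSO and to 1363 and 1378 TPM with MS1943. In RNA of a whole culture, fewer dividing cells and less RNA per dividing cell cannot be told apart. The proliferation markers MKI67, TOP2A, PCNA, CCNB1, CCNA2 and MCM2 all fell as well (median log2 fold change -1.20), MKI67 from 243 and 272 CPM to 96.3 and 89.1 CPM, and the part of the dividing fraction in the results was not tested.

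**Figure D1:**
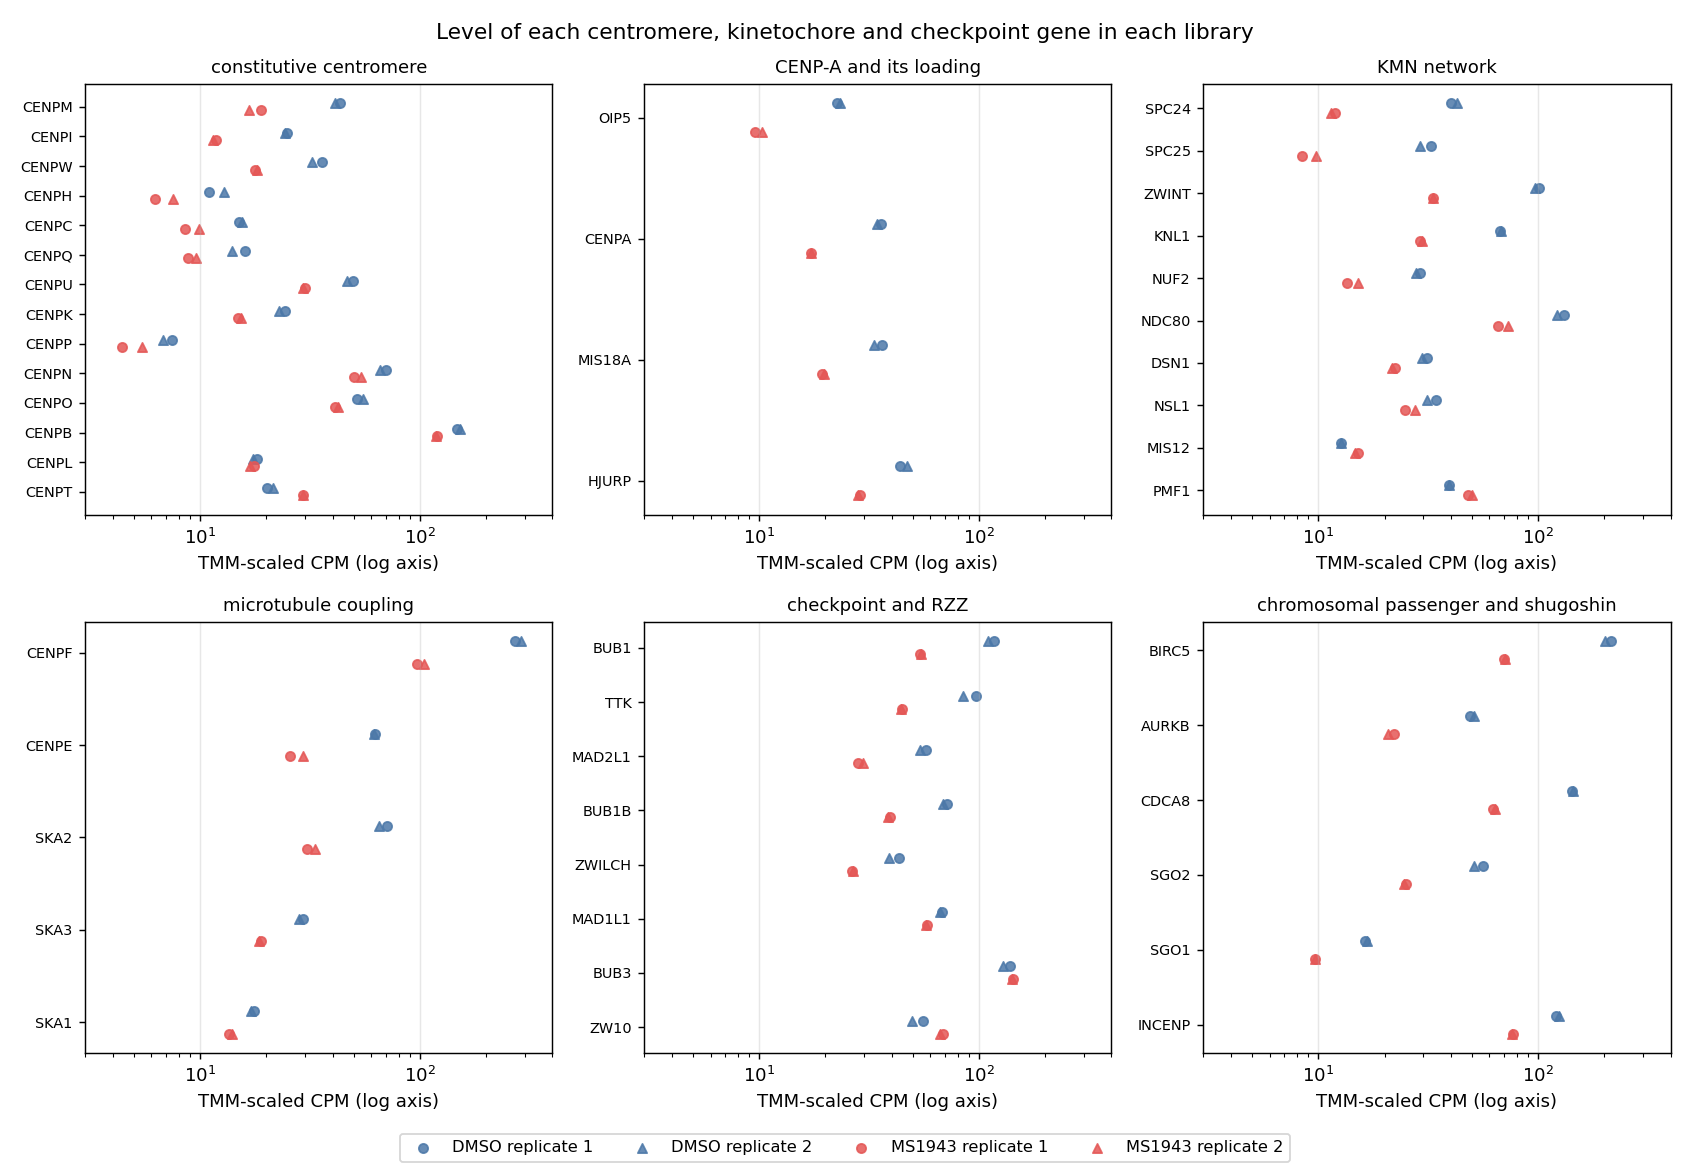
Each panel holds the genes of a role, in order of their fold change, with TMM-scaled CPM on a log axis; circles and triangles are replicates 1 and 2, blue is DMSO and red is MS1943. The red points lie left of the blue points for the 41 genes that fell, overlap them for CENPL, and lie right of them for CENPT, ZW10, PMF1, MIS12 and, by a small margin, BUB3.

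Promoter sequences are shown for the gene pair with the largest falls (SPC24 and SPC25), for 2 other genes that fell at least 2-fold (CENPF and CDCA8), and for the 2 genes with the largest rises (CENPT and ZW10), because genes of this class are known to share promoter elements. Each line gives the 250 bases before the RefSeq transcription start on GRCh38.p14, read 5′ to 3′ on the gene's strand. Capitals mark CCAAT, the core of the NF-Y box, and TTTGAA, a form of the cell cycle homology region, on either strand (ATTGG and TTCAAA when reversed).
SPC24 (chr19:11155783-11156032, minus strand): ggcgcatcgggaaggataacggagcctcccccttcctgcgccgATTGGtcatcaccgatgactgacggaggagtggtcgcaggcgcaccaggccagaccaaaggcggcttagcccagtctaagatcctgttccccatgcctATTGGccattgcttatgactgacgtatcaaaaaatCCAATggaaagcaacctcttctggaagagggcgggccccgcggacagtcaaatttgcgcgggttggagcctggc
SPC25 (chr2:168890431-168890680, minus strand): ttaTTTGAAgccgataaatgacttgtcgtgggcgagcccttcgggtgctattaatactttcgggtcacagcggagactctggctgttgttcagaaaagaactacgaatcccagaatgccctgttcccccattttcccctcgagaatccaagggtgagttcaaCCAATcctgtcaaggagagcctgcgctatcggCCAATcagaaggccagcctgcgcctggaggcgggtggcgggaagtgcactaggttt
CENPF (chr1:214602945-214603194, plus strand): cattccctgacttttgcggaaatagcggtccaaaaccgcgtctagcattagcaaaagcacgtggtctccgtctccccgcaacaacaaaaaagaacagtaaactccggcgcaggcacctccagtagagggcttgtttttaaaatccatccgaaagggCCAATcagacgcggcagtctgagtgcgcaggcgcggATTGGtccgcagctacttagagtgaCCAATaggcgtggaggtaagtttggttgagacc
CDCA8 (chr1:37692266-37692515, plus strand): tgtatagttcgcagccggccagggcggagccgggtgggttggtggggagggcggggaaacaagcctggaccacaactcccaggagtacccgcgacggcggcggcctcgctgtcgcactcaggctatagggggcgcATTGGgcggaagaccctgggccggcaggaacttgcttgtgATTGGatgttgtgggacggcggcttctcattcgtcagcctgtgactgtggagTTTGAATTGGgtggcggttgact
CENPT (chr16:67847694-67847943, minus strand): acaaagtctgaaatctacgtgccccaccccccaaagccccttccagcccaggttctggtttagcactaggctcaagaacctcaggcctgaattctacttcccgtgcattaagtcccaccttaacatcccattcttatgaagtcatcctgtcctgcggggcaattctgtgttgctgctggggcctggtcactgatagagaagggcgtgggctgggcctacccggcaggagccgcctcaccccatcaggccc
ZW10 (chr11:113773693-113773942, minus strand): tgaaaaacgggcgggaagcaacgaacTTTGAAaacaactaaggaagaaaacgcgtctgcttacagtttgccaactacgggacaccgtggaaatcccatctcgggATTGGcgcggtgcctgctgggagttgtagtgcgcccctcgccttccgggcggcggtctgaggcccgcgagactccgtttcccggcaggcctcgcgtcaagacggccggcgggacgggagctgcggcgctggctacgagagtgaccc
SPC24 and CENPF each hold 3 copies of the CCAAT box within these bases and SPC25 holds 2, with TTTGAA near the far end. CDCA8 holds 3 as well, and its TTTGAA shares a base with the copy nearest the start. SPC25 has a second TTTGAA across the start site and CENPF has TTTGAA in the transcribed bases that follow it, neither of them printed. Neither motif was found in the window of CENPT, whereas ZW10, which also rose, held TTTGAA and CCAAT. The printed genes do not stand for all that fell. Of 13 genes with a promoter entry that fell at least 2-fold, 5 held both motifs, and CENPI and CENPE held neither. CENPE did hold TTTAAA, described below, and so does CENPF in its printed bases, where it is not marked.

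Of the 47 genes, 39 had an entry in the RefSeq promoter table, whose windows run from 250 bases before to 50 bases after the start. BIRC5, BUB3, CENPH, CENPL, CENPM, KNL1, MIS18A and TTK had none. CCAAT was found in 26 of the 39 (66.7%), against 39.7% of 27305 genes in the table and 43.0% of its tested protein-coding genes. TTTGAA was found in 17 of the 39 (43.6%), against 18.2% and 14.0%, and both motifs stood together in 11 (28.2%), against 7.26% and 5.83%. TTTAAA, another form of the cell cycle homology region and its own reverse complement, was found in 4 of 39 (10.3%), against 14.5% of all genes and 11.3% of the tested protein-coding genes. Any of the E2F sequences TTTCCCGC, TTTGGCGC and TTTCGCGC was found in 4 of 39 (10.3%), against 3.30% of all genes and 5.35% of the tested protein-coding genes. The median log2 fold change was -0.84 with CCAAT and -0.46 without it, and for TTTGAA the medians were -0.85 and -0.71. For TTTAAA they were -1.145 and -0.7, and its 4 genes (CENPA, CENPE, CENPF and SGO2) all fell at least 2-fold. CCAAT was nevertheless found in 3 of the 4 genes with an entry that rose (75.0%: MIS12, PMF1 and ZW10), and in 23 of the 35 that fell (65.7%). These are matches of letters, given as a description.

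Constitutive centromere proteins form the base on which the kinetochore is built. Of 14 such genes, 12 fell (85.7%), CENPT rose and CENPL did not pass, with a median log2 fold change of -0.67. Among all genes tested, 29.4% fell and 30.0% rose. Of the 14, 2 genes, CENPM and CENPI, fell at least 2-fold (14.3%, against 7.93% of all genes tested). CENPM, a subunit of the CENP-H/I/K/M complex, stood at 43.4 and 41.1 CPM with DMSO and 18.8 and 16.7 CPM with MS1943 (log2 fold change -1.25 ± 0.07, adjusted p = 1.5e-11). Its partner CENPI stood at 24.9 and 24.2 CPM with DMSO and 11.9 and 11.5 CPM with MS1943 (log2 fold change -1.07 ± 0.07, adjusted p = 2.0e-10). Both MS1943 libraries of these genes lay far below both DMSO libraries, and the other partners CENPH (-0.80 ± 0.11) and CENPK (-0.65 ± 0.07) fell less. Per length, the 4 subunits went together from 162 and 164 TPM to 76.6 and 72.96 TPM. CENPC, which bridges CENP-A nucleosomes and the outer kinetochore, stood at 15.04 and 15.4 CPM with DMSO and 8.55 and 9.92 CPM with MS1943 (log2 fold change -0.73 ± 0.09, adjusted p = 7.4e-07). Transcripts annotated as other than protein coding held 62.6% and 69.4% of the CENPC reads with DMSO and 63.6% and 62.9% with MS1943. With protein-coding transcripts alone, its log2 fold change was -0.61. The 4 subunits of the CENP-O/P/Q/U complex all fell, by less than 2-fold: CENPQ by 0.71, CENPU (a docking protein for the kinase PLK1) by 0.70, CENPP by 0.54 and CENPO by 0.36 on the log2 scale. Reads of genes on opposite strands cannot be told apart here, because the library kit does not mark strand. Exons of other genes lie opposite 39.5% of the exon bases of CENPP (IPPK, NOL8), 31.4% of CENPO (ADCY3, PTRHD1) and 11.7% of CENPU (PRIMPOL). IPPK (0.56 ± 0.07) and NOL8 (0.27 ± 0.06) rose, PTRHD1 (-0.45 ± 0.07) and PRIMPOL (-0.50 ± 0.12) fell, and ADCY3 (0.08 ± 0.05, adjusted p = 0.239) did not pass. CENPP stood at 7.47 and 6.74 CPM with DMSO and 4.42 and 5.44 CPM with MS1943, and its call ended once transcript lengths entered as an offset (adjusted p = 0.283) and in limma on log2(TPM + 1) (adjusted p = 0.281) and log2(TPM + 0.1) (adjusted p = 0.267).

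CENPB, which binds a short box in the satellite DNA of centromeres, fell little and stood at 148 and 153 CPM with DMSO and 119.7 and 119 CPM with MS1943 (log2 fold change -0.33 ± 0.05, adjusted p = 2.5e-05). CENPN, which reads the CENP-A nucleosome, fell by a similar amount (-0.38 ± 0.06), with CMC2 and CENPN-AS1 opposite 15.5% of its exon bases. Its partner CENPL stood at 18.04 and 17.4 CPM with DMSO and 17.6 and 16.8 CPM with MS1943 (log2 fold change -0.04 ± 0.07, adjusted p = 0.697), so its groups overlapped, and its sign turned to 0.05 when protein-coding transcripts alone were counted. CENPT and CENPW, histone-fold partners that anchor a second arm of the kinetochore, went in opposite directions. CENPT (ENSG00000102901, hg38 chromosome 16, 67828157 to 67847811) stood at 20.03 and 21.4 CPM with DMSO and 29.3 and 29.4 CPM with MS1943 (log2 fold change 0.50 ± 0.07, adjusted p = 2.2e-06). CENPW (ENSG00000203760, chromosome 6, 126340174 to 126348875) stood at 35.8 and 32.1 CPM with DMSO and 17.7 and 18.2 CPM with MS1943 (log2 fold change -0.92 ± 0.07, adjusted p = 1.3e-09). All MS1943 values lay above DMSO for CENPT and below it for CENPW. Per length, CENPT held 0.16 and 0.18 times the TPM of CENPW with DMSO and 0.51 and 0.44 times with MS1943. This ratio does not compare coding RNA alone. Transcripts annotated as other than protein coding held 72.3% and 74.5% of the CENPT reads with DMSO and 66.2% and 64.5% with MS1943. For CENPW they held 0% in every library. Exons of THAP11, NUTF2 and TSNAXIP1 lie opposite 19.6% of the exon bases of CENPT. Of these, THAP11 fell (-0.47 ± 0.06), and NUTF2 (-0.10 ± 0.06, adjusted p = 0.122) and TSNAXIP1 (-0.28 ± 0.32, adjusted p = 0.477) did not pass.

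CENP-A itself and the factors that load it onto centromeres fell in all 4 cases (29.4% of all genes tested fell), with a median of -0.93. CENPA (ENSG00000115163, chromosome 2, 26764289 to 26801067) stood at 35.8 and 34.3 CPM with DMSO and 17.2 and 17.1 CPM with MS1943 (log2 fold change -1.03 ± 0.07, adjusted p = 9.1e-11). OIP5, the MIS18 subunit also called MIS18-beta, stood at 22.5 and 23.3 CPM with DMSO and 9.52 and 10.3 CPM with MS1943 (log2 fold change -1.21 ± 0.08, adjusted p = 8.2e-11). MIS18A, its partner in marking centromeres for loading, stood at 36.01 and 33.1 CPM with DMSO and 19.3 and 19.7 CPM with MS1943 (log2 fold change -0.82 ± 0.07, adjusted p = 3.2e-09), and the CENP-A chaperone HJURP at 43.6 and 46.8 CPM with DMSO and 28.6 and 28.04 CPM with MS1943 (log2 fold change -0.67 ± 0.06, adjusted p = 1.8e-08). The groups did not overlap for any of these genes, as for 78.3% of all genes tested. CENPA shares 7.0% of its exon bases with SLC35F6, which rose (0.81 ± 0.05). OIP5 shares 38.0% of its exon bases with the antisense RNA OIP5-AS1, which stood at 75.3 ± 1.84 and 69.6 ± 1.16 CPM (SD, n = 2; log2 fold change -0.11 ± 0.05, edgeR adjusted p = 0.0791).

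**Figure D2:**
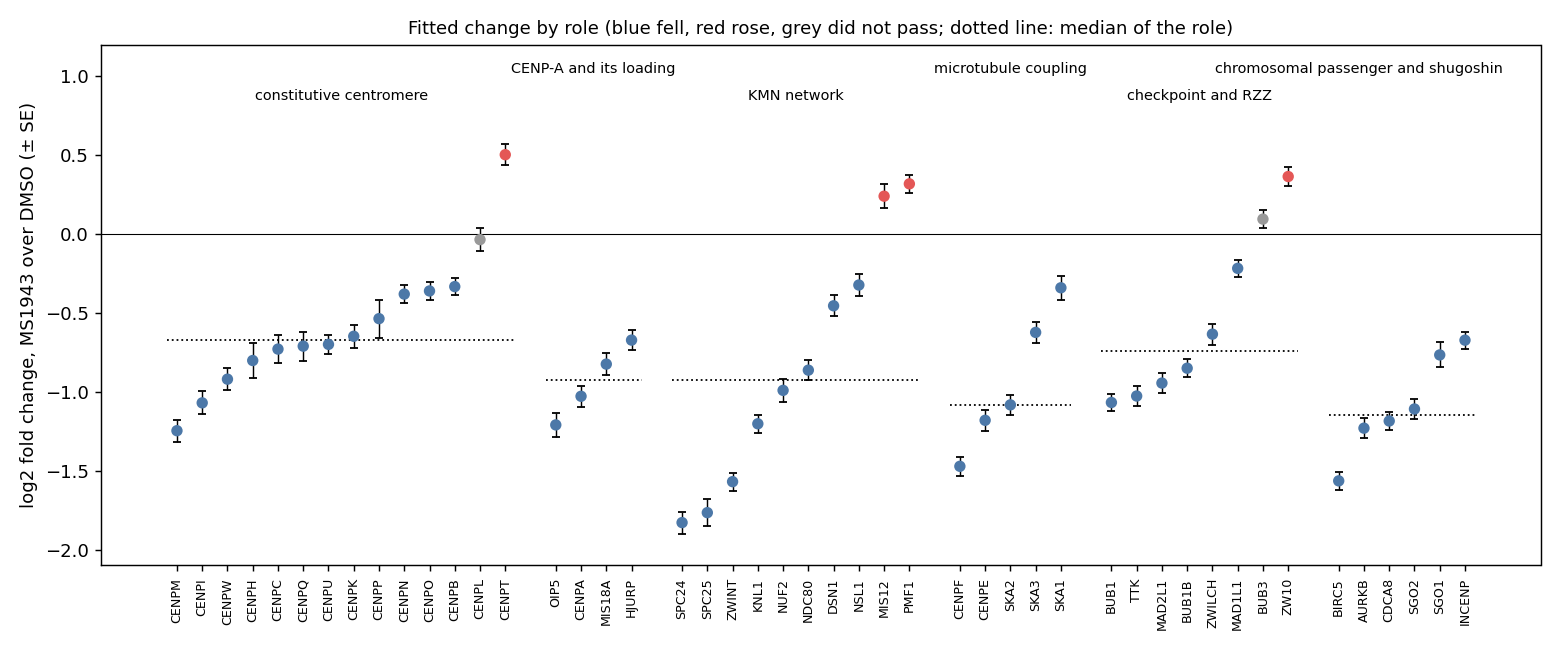
Points are fitted log2 fold changes of MS1943 over DMSO with SE bars (2 libraries a group), grouped by role; dotted lines are the medians of the roles, from -0.67 for the constitutive genes to -1.15 for the passenger and shugoshin genes. The 4 red points above the line at 0 are CENPT, MIS12, PMF1 and ZW10, and the 2 grey points did not pass.

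The KMN network joins the MIS12 complex, the NDC80 complex and KNL1. Of its 10 genes, counting the KNL1 partner ZWINT, 8 fell and 2 rose (29.4% and 30.0% of all genes tested did so). All 4 subunits of the NDC80 complex fell. SPC24 (ENSG00000161888, chromosome 19, 11131520 to 11155808) and SPC25 (ENSG00000152253, chromosome 2, 168834132 to 168913371), which tie the complex to the inner kinetochore, fell most of the 47 genes. SPC24 stood at 40.3 and 42.7 CPM with DMSO and 11.9 and 11.4 CPM with MS1943 (log2 fold change -1.83 ± 0.07, adjusted p = 4.5e-14), 3.55-fold lower. SPC25 stood at 32.4 and 29.001 CPM with DMSO and 8.46 and 9.70 CPM with MS1943 (log2 fold change -1.77 ± 0.08, adjusted p = 1.1e-12), 3.40-fold lower. The microtubule-binding pair fell less: NDC80 stood at 131 and 121 CPM with DMSO and 65.8 and 72.9 CPM with MS1943 (log2 fold change -0.86 ± 0.06, adjusted p = 4.5e-10). NUF2 stood at 28.9 and 27.7 CPM with DMSO and 13.5 and 15.1 CPM with MS1943 (log2 fold change -0.99 ± 0.07, adjusted p = 8.2e-10). Per length, NUF2 held 0.28 and 0.30 times the TPM of NDC80 with DMSO and 0.26 and 0.27 times with MS1943, so this pair kept nearly the same ratio. SPC25, in contrast, went from 1.48 and 1.36 times the TPM of NUF2 to 0.82 and 0.82 times, and SPC24 from 0.59 and 0.69 to 0.37 and 0.29 times the TPM of NDC80. The complex as a whole went from 229 and 229.6 TPM to 87.2 and 92.8 TPM.

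KNL1, the scaffold that binds the BUB proteins, stood at 67.1 and 67.8 CPM with DMSO and 28.9 and 29.7 CPM with MS1943 (log2 fold change -1.20 ± 0.06, adjusted p = 1.3e-12). ZWINT, which links KNL1 to the RZZ complex, stood at 101 and 96.3 CPM with DMSO and 33.1 and 33.3 CPM with MS1943 (log2 fold change -1.57 ± 0.06, adjusted p = 2.4e-14). The MIS12 complex, which connects CENP-C to the rest of the network, was divided: DSN1 (-0.46 ± 0.07) and NSL1 (-0.32 ± 0.07) fell while PMF1 and MIS12 rose. PMF1 (ENSG00000160783, chromosome 1, 156212993 to 156240042) stood at 39.5 and 39.2 CPM with DMSO and 47.9 and 50.2 CPM with MS1943 (log2 fold change 0.32 ± 0.06, adjusted p = 9.7e-05). MIS12 (ENSG00000167842, chromosome 17, 5486285 to 5490814) stood at 12.6 and 12.6 CPM with DMSO and 15.1 and 14.7 CPM with MS1943 (log2 fold change 0.24 ± 0.08, adjusted p = 0.0117). In CPM both MS1943 libraries lay above DMSO for these 2 genes, but the rises were small, and in TPM the groups overlapped for MIS12 (8.22 and 9.82 TPM against 9.74 and 9.64 TPM). The call for MIS12 ended with DESeq2 (adjusted p = 0.0805), with total-read scaling (0.13, adjusted p = 0.151), with no filter on low counts (adjusted p = 0.0665), with a length offset (adjusted p = 0.124), in limma on log2(TPM + 1) (0.10, adjusted p = 0.501) and log2(TPM + 0.1) (0.11, adjusted p = 0.479), and also when MS1943 replicate 1 was left out (adjusted p = 0.0981; the spread then comes from the DMSO pair alone). PMF1 shares 23.3% of its exon bases with the readthrough gene PMF1-BGLAP, which stood at 6.70 ± 0.07 and 6.91 ± 0.33 CPM (SD, n = 2). Exons of DERL2, which rose as well (0.21 ± 0.06), lie opposite 9.5% of the exon bases of MIS12. Per length, PMF1 went from 2.79 and 2.83 to 4.60 and 4.90 times the TPM of DSN1, and the complex summed to 157 and 159 TPM with DMSO and 140.3 and 149 TPM with MS1943.

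**Figure D3:**
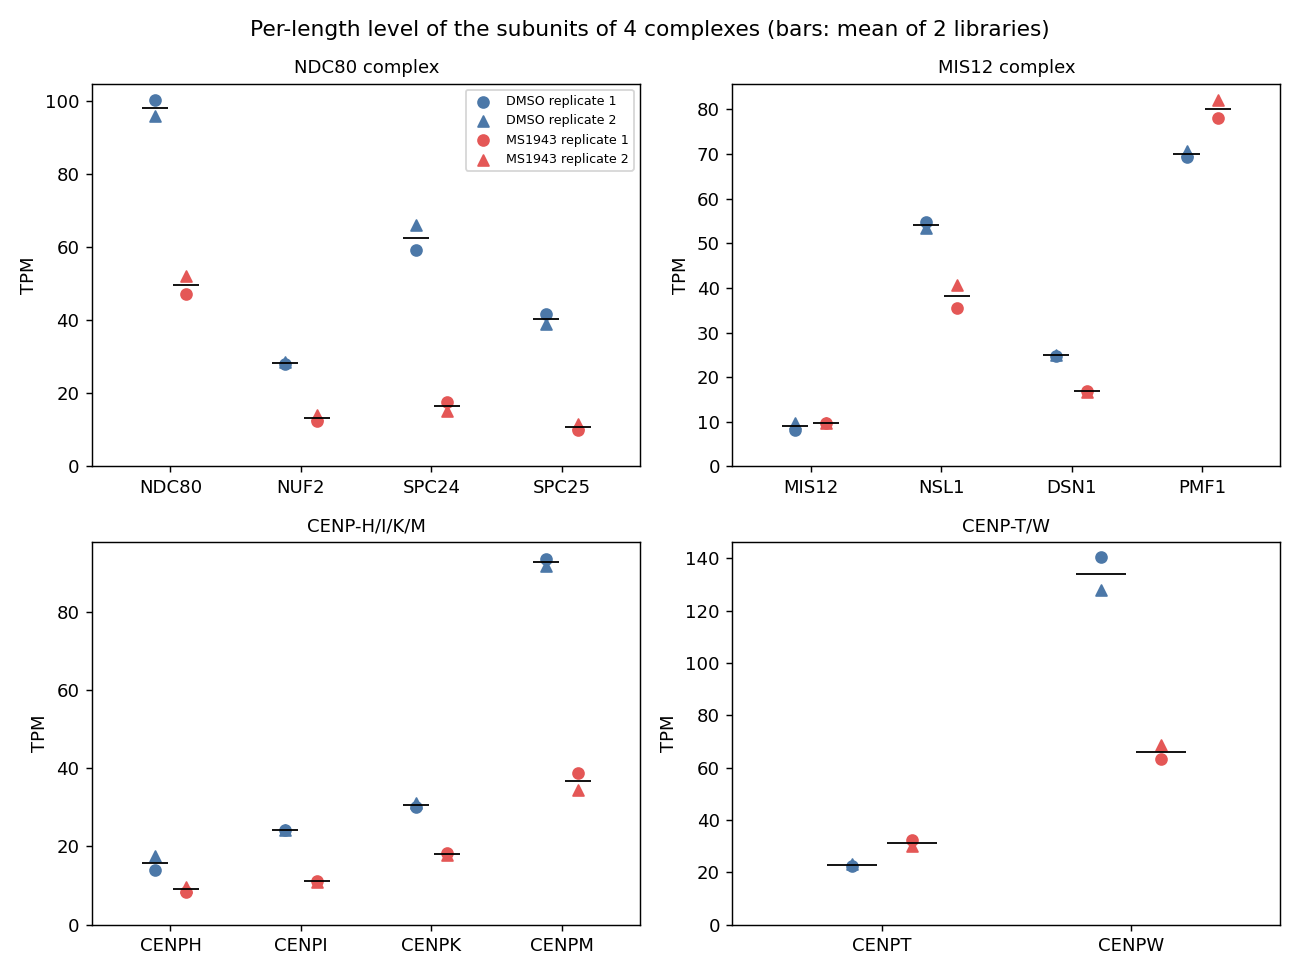
TPM of each subunit in each library for 4 complexes, with short bars at the mean of 2 libraries; blue is DMSO and red is MS1943. All subunits of the NDC80 and CENP-H/I/K/M complexes are lower with MS1943, while PMF1 is higher beside lower DSN1 and NSL1, CENPT is higher beside lower CENPW, and the MIS12 libraries of the 2 treatments overlap in TPM.

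Proteins that couple kinetochores to moving microtubules fell in all 5 cases (29.4% of all genes tested fell), with a median of -1.08. CENPF, a large coiled-coil protein of the outer corona, stood at 270.3 and 289 CPM with DMSO and 97.2 and 105 CPM with MS1943 (log2 fold change -1.47 ± 0.06, adjusted p = 1.3e-13). CENPE, the kinetochore kinesin, stood at 62.4 and 62.1 CPM with DMSO and 25.7 and 29.4 CPM with MS1943 (log2 fold change -1.18 ± 0.07, adjusted p = 1.1e-11). The SKA complex, which helps NDC80 hold shrinking microtubules, fell unevenly. SKA2 stood at 70.7 and 64.8 CPM with DMSO and 30.7 and 33.4 CPM with MS1943 (log2 fold change -1.08 ± 0.06, adjusted p = 2.8e-11). SKA3 stood at 29.5 and 28.2 CPM with DMSO and 18.9 and 18.5 CPM with MS1943 (log2 fold change -0.62 ± 0.07, adjusted p = 1.4e-07), and SKA1 at 17.6 and 17.1 CPM with DMSO and 13.5 and 13.97 CPM with MS1943 (log2 fold change -0.34 ± 0.07, adjusted p = 6.0e-04). No group overlapped another for these 5 genes, as for 78.3% of all genes tested, and SKA1 lay nearest.

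Among 8 genes of the checkpoint and of the RZZ complex, which brings MAD1 and MAD2 to kinetochores, 6 fell, ZW10 rose and BUB3 did not pass. Their median was -0.74, and of all genes tested 29.4% fell and 30.0% rose. BUB1, a kinase that marks centromeric chromatin and recruits MAD1, stood at 117 and 109 CPM with DMSO and 53.9 and 54.2 CPM with MS1943 (log2 fold change -1.07 ± 0.06, adjusted p = 5.9e-12). TTK, the kinase MPS1 that starts checkpoint signalling, stood at 96.4 and 84.4 CPM with DMSO and 44.6 and 44.02 CPM with MS1943 (log2 fold change -1.03 ± 0.06, adjusted p = 6.3e-11). These were the genes of the group that fell at least 2-fold. BUB1B, which encodes the inhibitor BUBR1, fell by 0.85 and MAD2L1, which encodes MAD2, by 0.94 on the log2 scale. ZWILCH, an RZZ subunit, fell by 0.63, and MAD1L1, the scaffold for MAD2, stood at 68.1 and 66.4 CPM with DMSO and 57.97 and 57.6 CPM with MS1943 (log2 fold change -0.22 ± 0.05, adjusted p = 0.00197). BUB1B shares 10.2% of its exon bases with the readthrough gene BUB1B-PAK6 (-0.83 ± 0.26), and LCTL and RPL4 lie opposite 10.9% of those of ZWILCH. The call for MAD1L1 ended with a length offset (adjusted p = 0.182). ZW10 (ENSG00000086827, chromosome 11, 113733187 to 113773811), the RZZ subunit that also serves membrane traffic between Golgi and endoplasmic reticulum outside mitosis, stood at 55.5 and 49.7 CPM with DMSO and 68.7 and 66.7 CPM with MS1943 (log2 fold change 0.36 ± 0.06, adjusted p = 3.7e-05), with both MS1943 libraries above both DMSO libraries. BUB3, the WD-repeat partner of BUB1 and BUBR1, stood at 138 and 128 CPM with DMSO and 143 and 141 CPM with MS1943 (log2 fold change 0.09 ± 0.06, adjusted p = 0.157). The BUB3 groups did not overlap but lay close; it was called higher with a length offset (0.17, adjusted p = 0.0441) and also when DMSO replicate 1 was left out (0.14, adjusted p = 0.0279; the spread then comes from the MS1943 pair alone), and its sign turned to -0.02 with total-read scaling. BUB3 was the most abundant of the 8 per length, and the group as a whole kept 77.6% of its summed TPM (449 and 452 TPM with DMSO, 356 and 343 TPM with MS1943).

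The chromosomal passenger complex and the shugoshins, which guard centromeric cohesion, fell in all 6 cases (29.4% of all genes tested fell). They had the lowest median of the roles (-1.15). BIRC5 (ENSG00000089685, chromosome 17, 78214186 to 78225636), survivin, stood at 215 and 201 CPM with DMSO and 69.9 and 70.8 CPM with MS1943 (log2 fold change -1.56 ± 0.06, adjusted p = 2.6e-14). AURKB, the kinase of the complex, stood at 49.2 and 51.3 CPM with DMSO and 22.1 and 20.7 CPM with MS1943 (log2 fold change -1.23 ± 0.06, adjusted p = 4.1e-12). CDCA8, borealin, stood at 142 and 144 CPM with DMSO and 62.2 and 63.6 CPM with MS1943 (log2 fold change -1.19 ± 0.05, adjusted p = 6.8e-13). The scaffold INCENP fell less and stood at 120.4 and 124 CPM with DMSO and 77.2 and 76.2 CPM with MS1943 (log2 fold change -0.67 ± 0.05, adjusted p = 2.3e-09), so that BIRC5 went from 1.94 and 1.94 to 1.02 and 1.25 times the TPM of INCENP. SGO2 stood at 55.9 and 51.3 CPM with DMSO and 25.04 and 24.6 CPM with MS1943 (log2 fold change -1.11 ± 0.06, adjusted p = 1.8e-11). SGO1, whose exons lie opposite SGO1-AS1 over 17.7% of their bases, stood at 16.3 and 16.6 CPM with DMSO and 9.64 and 9.66 CPM with MS1943 (log2 fold change -0.77 ± 0.08, adjusted p = 9.1e-08). The 6 genes together kept 40.8% of their summed TPM, from 433 and 451 TPM to 180.0 and 180.9 TPM.

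Set against each other, the 14 constitutive genes and the 23 genes of the outer kinetochore and checkpoint (KMN network, microtubule coupling, checkpoint and RZZ) both fell in the main. For the outer genes the median log2 fold change was -0.86, with a spread from -1.83 (SPC24) to 0.36 (ZW10), and for the constitutive genes it was -0.67, with a spread from -1.25 (CENPM) to 0.50 (CENPT). The medians thus differed by 0.19 on the log2 scale, and the ranges overlapped over most of their length. By library, against the DMSO mean, the outer median minus the constitutive median was -0.25 in each MS1943 library. At least 2-fold falls were found in 9 of the 23 (39.1%) and in 2 of the 14 genes (14.3%). The shares were 7.93% of all genes tested and 6.9% of protein-coding ones, and the constitutive share rests on 2 genes. In summed TPM, the outer genes kept 61.3% and the constitutive genes 61.8% of the DMSO level, and the ratio of the sums was 1.88 and 1.89 with DMSO and 1.86 and 1.88 with MS1943. Abundant genes weigh most in such sums. On the outer side, BUB3 held 161 of 1178 TPM with DMSO and 169 of 722 TPM with MS1943. On the constitutive side, CENPN and CENPB held 107 and 81.6 of 625 TPM, then 78.6 and 59.1 of 386 TPM (means of 2 libraries). The size of the difference rested on where the MIS12 complex was counted: with it on the constitutive side the medians differed by -0.50. The 4 genes of that complex changed little (median -0.04), so this move could only widen the difference. Complexes were grouped after their values were seen. Genes of a role are not replicates, so these are descriptions without a test.

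Across the 47 genes, log2 fold change was loosely related to the log2 CPM with DMSO (Spearman rho -0.29, against -0.02 over 19346 genes tested). Genes share libraries and are not independent. CPM is not scaled by length, so this ranking mixes level with gene length, and the DMSO values also enter the fold change. Per length, the 3 most abundant with DMSO were BUB3 (161 TPM), BIRC5 (152 TPM) and CENPW (134 TPM; means of 2 libraries), of which BUB3 did not pass, BIRC5 fell by 1.56 and CENPW by 0.92 on the log2 scale.

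Salmon's transcript estimates divide each gene among its annotated forms, and a few genes changed in makeup. CENPU was held by 2 transcripts in the main. Its coding form CENPU-201 made up 70.4% and 66.4% of its reads in the DMSO libraries and 57.8% and 57.5% in the MS1943 libraries. CENPU-205, annotated as a target of nonsense-mediated decay, took 23.8% and 27.9% and then 36.9% and 37.8%. In abundance, CENPU-201 went from 27.9 and 25.4 to 12.8 and 12.4 TPM and CENPU-205 from 12.8 and 14.4 to 11.04 and 11.06 TPM, so that the coding form was lower by more. CENPT ran the other way: transcripts annotated as other than protein coding held 72.3% and 74.5% of its reads in the DMSO libraries and 66.2% and 64.5% in the MS1943 libraries, most of them in CENPT-218, which retains an intron. Counting only protein-coding transcripts, CENPT rose by 0.89 on the log2 scale, against 0.50 for all transcripts, and CENPU fell by 0.95, against 0.70. CENPA also held more reads in noncoding forms with MS1943 (40.8% and 29.9%) than with DMSO (27.4% and 14.2%), but its DMSO libraries lay nearly as far apart as the group means. SKA3 went from 35.1% and 31.8% to 27.6% and 26.3% in forms annotated as other than protein coding, mostly targets of nonsense-mediated decay. CENPO and CENPN shifted between coding forms: CENPO-206 went from 37.8% and 30.6% to 18.2% and 14.3% of the reads, and CENPN-202 from 28.6% and 37.9% to 49.7% and 51.8%. These genes were singled out after their values were seen. With 2 against 2 libraries an exact permutation test cannot give a p below 0.333, so no share was tested, and the files hold no error for dividing reads among overlapping transcripts.

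**Figure D4:**
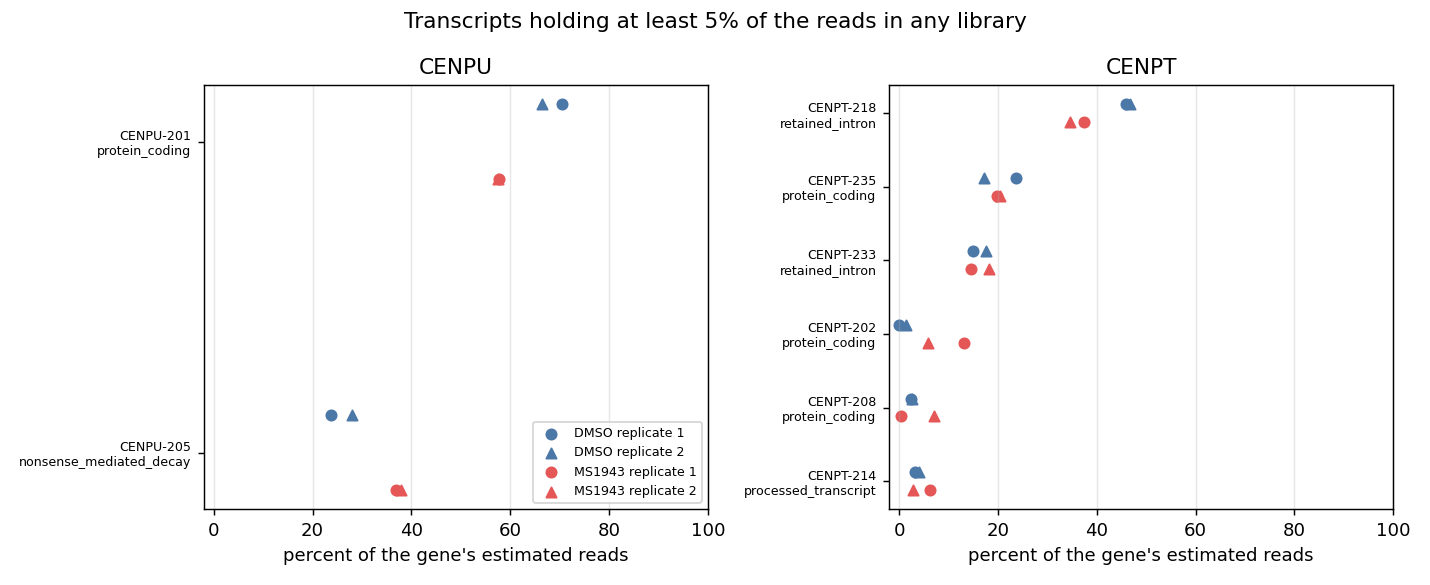
Percent of the estimated reads of CENPU and CENPT assigned to each transcript that holds at least 5% in any library; circles and triangles are replicates 1 and 2, blue is DMSO and red is MS1943. The coding form of CENPU lies lower with MS1943 and the decay target higher, and the intron-retaining form CENPT-218 lies lower.

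Other genes of kinetochores and checkpoint signalling, outside the 47, moved in a like manner. Of 24 such genes, 19 fell (79.2%), 3 rose and 2 did not pass, with a median of -0.65. Among all genes tested, 29.4% fell and 30.0% rose. SPAG5 (astrin, a spindle and kinetochore protein; -1.21 ± 0.06), KIF2C (the kinesin MCAK, which dismantles microtubules; -1.06 ± 0.06) and PLK1 (the mitotic kinase docked by CENPU; -0.99 ± 0.05) fell with the smallest adjusted p, PLK1 tied with NDEL1. The RZZ subunit KNTC1 fell by 0.49, unlike its partner ZW10. NDEL1, a dynein regulator that also serves interphase cells, rose from 21.4 and 20.4 to 45.8 and 46.3 CPM (1.14 ± 0.06). BOD1 (0.59 ± 0.05), CLASP1 (0.37 ± 0.05) and KNTC1 were singled out after their values were seen, the first 2 because they rose.

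Genes that encode transcription factors and regulators of the division cycle went both ways. Of 16, 9 fell (56.2%), 5 rose and 2 did not pass. Among all genes tested, 29.4% fell and 30.0% rose, so the rises lay near that background and the falls above it. FOXM1, an activator of G2 and mitosis genes, stood at 124 and 116 CPM with DMSO and 46.3 and 46.7 CPM with MS1943 (log2 fold change -1.37 ± 0.06, adjusted p = 1.9e-13). MYBL2, its partner on such promoters, fell by 1.17 on the log2 scale, and E2F1, an activator of S-phase genes, stood at 92.4 and 92.03 CPM with DMSO and 40.4 and 39.1 CPM with MS1943 (log2 fold change -1.21 ± 0.06, adjusted p = 7.2e-13). CDKN1A, the inhibitor p21 of cyclin-dependent kinases, stood at 17.5 and 16.95 CPM with DMSO and 109.6 and 103 CPM with MS1943 (log2 fold change 2.63 ± 0.06, adjusted p = 5.1e-17). Of the subunits of MuvB, a complex that binds the cell cycle homology region, LIN37 (0.72 ± 0.07), LIN52 (0.70 ± 0.09) and LIN54 (0.44 ± 0.06) rose and LIN9 (-0.54 ± 0.07) fell. RB1 was low in all libraries, at 0.97 and 1.23 CPM with DMSO and 1.13 and 1.27 CPM with MS1943 (log2 fold change 0.11 ± 0.23, adjusted p = 0.697), while its relatives RBL1 (-0.45 ± 0.07) and RBL2 (-0.24 ± 0.05) fell. The MuvB and RB family genes were singled out after their values were seen.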

How the data were processed

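The members and gene lists were chosen with earlier results of these data known. Poly(A) RNA of 4 libraries was made with a kit that does not mark strand, per the labels' protocols. The authors deposited a Salmon table per library, with estimated counts, TPM (reads scaled by length and library) and effective lengths of 197653 transcripts; Salmon 0.9.1, R 3.4.3, DESeq2 and hg38 are named per the submitters' processing notes, and which annotation was used is not given in the sources used here. Here transcripts were matched to GENCODE release 29 without ID versions (193348 matched; the others held 0.482% to 0.496% of estimated reads) and summed per gene.

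Rounded sums were tested with edgeR 4.0.16 (TMM, filterByExpr, quasi-likelihood F test, treatment alone, Benjamini-Hochberg over 19358 genes, adjusted p under 0.05); the SE is the fold change divided by the root of F. The script was tested on simulated data. Alternatives used DESeq2 1.42.0, limma 3.58.1 on log2(TPM + 1) or log2(TPM + 0.1), total-read scaling, no filter, a length offset, protein-coding transcripts alone, each library left out (the lone library of that group is then assumed to vary like the other group's pair), and a 2-fold minimum. Levels of different genes are compared in TPM, except in the rank relation with CPM, which is not scaled by length. In each role the text names the lowest and the 2 highest fold changes, all genes that rose or did not pass and all past 2-fold; of the other lists, up to 3 with the smallest adjusted p, and FOXM1, E2F1 and CDKN1A; another gene that the rule names is not reported here. Further members were named to complete a complex, after their values were seen; complexes were grouped then too.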

Additional observations from a re-analysis of the deposited data

How the results depend on the processing

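Of 517 values of single members under 11 other settings, 502 kept their direction and side of the threshold, and 42 of 47 members did so in every setting. The sign turned for BUB3 with total-read scaling (-0.0178, adjusted p = 0.751) and for CENPL with protein-coding transcripts alone (0.052, adjusted p = 0.571); neither passed. Calls for MIS12 (7 settings), CENPP (3) and MAD1L1 (1) ended as given above. Fits without a library leave 1 in its group and take the spread from the other pair, so they are weak checks. Members that fell numbered 39 to 41 and those that rose 3 to 5 across fits. A 2-fold minimum left 17 members lower and 0 higher, and 1535 genes lower and 1542 higher. Leaving out members that share at least 10% of their exon bases with another gene, chosen after seeing the data, left 2 that rose and a difference of medians (outer minus constitutive) of -0.24. That difference was -0.20 with a length offset, -0.27 with protein-coding transcripts, -0.27 and -0.21 in limma with 1 and 0.1 added, -0.25 to -0.22 without single libraries, -0.50 with the MIS12 complex on the constitutive side and -0.16 with the CENP-A genes there. Total-read scaling moved the median of all genes to -0.12 and left 39.8% of called genes higher (4619 higher, 6973 lower), against 50.5% with TMM; limma called 3747 and 3746 higher (39.1% and 39.2%) and 5847 and 5821 lower. The cause was not tested. No paired analysis was made, because the labels carry no replicate numbers. The sample titles end in letters (A, E, BCD and FGH) that come without a key, so a pairing could not be read from them. Replicates 1 and 2 in this text number the libraries of a treatment in the order listed, and imply no pairing. Genes near 1 CPM, such as RB1, are imprecise at this depth.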

Other observations

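Condensin, which compacts chromosomes for division, fell as a whole: all 8 subunit genes of condensin I and II fell, with a median log2 fold change of -0.93, against 29.4% of all genes tested (edgeR). NCAPG went from 85.4 and 80.6 CPM with DMSO to 35.4 and 35.9 CPM with MS1943 (-1.22 ± 0.06), NCAPH from 94.5 and 88.4 to 40.8 and 39.1 CPM (-1.19 ± 0.06) and NCAPD2 from 192 and 180.1 to 89.01 and 87.9 CPM (-1.07 ± 0.06). Libraries of the 2 treatments did not overlap for any of the 8, as for 78.3% of all genes tested and 83.1% of protein-coding ones.

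Most genes of the cohesin list fell. Of 16 genes of cohesin, its regulators and separase, 10 fell (62.5%), 3 rose and 3 did not pass, with a median of -0.38. Among all genes tested, 29.4% fell and 30.0% rose, so falls lay above that background and rises below it. ESCO2, which acetylates cohesin in S phase, went from 27.3 and 25.96 to 8.74 and 8.83 CPM (-1.60 ± 0.08), ESPL1, separase itself, from 64.96 and 68.2 to 28.1 and 27.1 CPM (-1.27 ± 0.06), and its inhibitor PTTG1, securin, from 114 and 103 to 46.5 and 46.8 CPM (-1.22 ± 0.06). WAPL, which releases cohesin from chromosomes, rose from 109 and 106 to 159 and 163 CPM (0.59 ± 0.05), and is named here because it rose, as seen from its values. The loader NIPBL (-0.01 ± 0.05) and the core subunits STAG1 (-0.04 ± 0.06) and STAG2 (0.03 ± 0.06) did not pass. The other core subunits RAD21 (-0.78 ± 0.06), SMC1A (-0.41 ± 0.05) and SMC3 (-0.37 ± 0.05) fell, and are named here after their values were seen.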
